A study of Homo sapiens with 6 samples.

Results

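The genes described here are 101 genes named as long noncoding RNAs, out of 56638 listed gene symbols. RefSeq was matched for 99 of the 101 and now types 10 of these as protein-coding. All 101 carry a symbol made of LINC or SNHG followed by digits alone, or are among 11 genes named singly (MALAT1, NEAT1, KCNQ1OT1, GAS5, H19, MEG3, PVT1, CCAT1, TUG1, DANCR and ZFAS1), and they held at least 60 reads in total over the 6 libraries. Before that minimum 640 names matched, of which 614 were LINC and 15 were SNHG symbols. No read in any library was found for 272 of them, and 267 had 1 to 59 reads, which left 77 LINC genes, 13 SNHG genes and all 11 genes named singly. The genes were chosen by symbol and by the read total over both groups, with earlier results of these data known. The rule itself does not use the difference between the groups, and the read total is a description here. Just outside the minimum lay LINC01155 with 59 reads and LINC01004 with 57, and just inside it LINC00910, LINC01003 and LINC01098 with 61 reads each and LINC00887 with 63.

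RNA sequencing compared cells labelled HT29, an established human colorectal cancer line, at passage 16-19 after transfer of an siRNA against RNF6 (genotype label RNF6 knockdown, 3 libraries) or of a nonspecific siRNA (genotype label wild type and control, 3 libraries). RNF6 encodes an E3 ubiquitin ligase with a RING finger, and the comparison asks which transcripts differ when its messenger RNA is reduced. All 6 libraries were made from total RNA extracted with Trizol, with an Illumina TruSeq RNA kit, from cells grown in RPMI-1640 with fetal bovine serum. Nothing states how many siRNA sequences were used, how long the cells were kept after transfer, or that the libraries of a group came from separate cultures.

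Reads assigned to genes numbered 6808771 to 11071456 in the RNF6 siRNA libraries and 7173957 to 9366532 in the Control siRNA libraries. RNF6 itself stood at 16.5, 16.2 and 16.9 CPM (reads scaled to library size) in the RNF6 siRNA libraries, against 54.3, 45.2 and 57.8 CPM in the Control siRNA libraries, 3.17-fold lower (adjusted p = 2.12e-06, edgeR quasi-likelihood test). Of 14 markers of colorectal epithelium, 7 were high enough to test. EPCAM (227 CPM in RNF6 siRNA and 218 CPM in Control siRNA libraries), CDH1, KRT8, KRT18, KRT19 and CDX2 were present in both groups, CDX1, CEACAM6 and TFF3 had no read, and VIL1, LGALS4, CEACAM5 and MUC2 averaged under 1 CPM, so the label HT29 is carried here as a label. KRT8, KRT18, KRT19 and KRT20 fell, while the leukocyte list summed to at most 0.644 CPM in an RNF6 siRNA library and 1.92 CPM in a Control siRNA library. The fibroblast list, nearly all of it COL1A1, summed to 68.9 to 83.1 CPM in RNF6 siRNA and 49.5 to 64.1 CPM in Control siRNA libraries. The part of these marker levels in the results below was not tested.

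Long noncoding RNAs are transcripts without a long open reading frame that act as RNA, are processed into smaller RNAs, or leave a function only through the act of being transcribed. NEAT1 and MALAT1 stay in the nucleus, where NEAT1 is the scaffold of paraspeckles and MALAT1 gathers in nuclear speckles rich in splicing factors. SNHG genes, GAS5, DANCR and ZFAS1 are host genes: small nucleolar RNAs (snoRNAs), which guide the modification of ribosomal RNA, are cut from their introns, and many spliced host transcripts are removed by nonsense-mediated decay. LINC is a provisional name for intergenic noncoding genes, and some of these genes were renamed once a function or a small protein was known.

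Several snoRNA host genes begin with a run of pyrimidines like that of messenger RNAs for ribosomal proteins and translation factors, a feature known as a terminal oligopyrimidine start. RefSeq windows on GRCh38.p14, a newer build than the hg19 build of the counts, were found for 72 of the 101 genes. A C followed by at least 4 further pyrimidines, starting within 5 bases of the annotated start on the gene's strand, occurred in a window of 8 of 16 host genes and of 29 of the 72 genes (40.3%), against 25.2% of all 27305 genes in the table. The letters TATA, 40 to 20 bases before the start on the gene's strand, occurred in 5 of the 16 hosts (31.2%) and in 9 of the 72 genes (12.5%), against 7.71% of all genes. The 5 hosts with TATA also held the pyrimidine run, and their windows of 40 bases before and 40 from the start are shown 5′ to 3′, with both matches in capitals, to show this shared layout. They lie at chr6:85678694-85678773 on the minus strand (SNHG5), chr9:136728145-136728224 on the minus strand (SNHG7), chr4:118278722-118278801 on the plus strand (SNHG8), chr1:28581834-28581913 on the minus strand (SNHG12) and chr20:49278602-49278681 on the plus strand (ZFAS1).
SNHG5: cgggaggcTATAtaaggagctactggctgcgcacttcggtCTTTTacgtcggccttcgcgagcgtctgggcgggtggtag
SNHG7: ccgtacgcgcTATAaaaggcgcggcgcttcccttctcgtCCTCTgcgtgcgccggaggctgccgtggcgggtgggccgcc
SNHG8: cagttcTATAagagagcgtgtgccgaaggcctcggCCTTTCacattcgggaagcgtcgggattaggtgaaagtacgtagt
SNHG12: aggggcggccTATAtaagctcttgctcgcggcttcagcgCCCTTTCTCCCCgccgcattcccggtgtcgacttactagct
ZFAS1: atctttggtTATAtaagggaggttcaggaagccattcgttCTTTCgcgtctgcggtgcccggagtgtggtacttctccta

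Of the called genes with a window, TATA was found only in ZFAS1 and MALAT1. Windows of 3 called genes outside the hosts follow with the same marking, shown because the results below turn on them: LINC00894 at chrX:149938508-149938587 and TUG1 at chr22:30969225-30969304, both on the plus strand and with neither match, and MALAT1 at chr11:65499005-65499084 on the plus strand, where TATA alone matched at this annotated start. A match is a description of letters in the window and was not linked to any measured level.
LINC00894: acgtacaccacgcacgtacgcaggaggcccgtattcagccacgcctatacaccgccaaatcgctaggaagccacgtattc
TUG1: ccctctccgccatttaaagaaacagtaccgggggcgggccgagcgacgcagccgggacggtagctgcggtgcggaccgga
MALAT1: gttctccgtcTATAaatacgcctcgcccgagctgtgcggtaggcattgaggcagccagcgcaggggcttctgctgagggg

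Genes of this set changed in both directions after RNF6 siRNA, with more rises than falls among the calls. Of the 101 genes, 23 rose and 13 fell at an adjusted p below 0.05 (edgeR quasi-likelihood test, adjusted over 14685 genes), and 65 were not called. All 101 passed the expression filter of the test, but a gene near the read minimum could pass it through the group in which it was high. The called share was 35.6% of the 101 genes beside 32.7% of all genes tested, so it was close to the background. Higher calls made up 22.8% beside 16.6% of all genes, and lower calls 12.9% beside 16.1%. At a mean of at least 10 CPM, 9 of 38 genes rose (23.7%, beside 17.7% of all genes at that level) and 8 fell (21.1%, beside 19.2%). Under 10 CPM, 14 of 63 rose (22.2%, beside 14.0%) and 5 fell (7.94%, beside 8.58%). Rises thus outnumbered falls mainly under 10 CPM, where they did so among all genes too. For 51 of the 101 genes the RNF6 siRNA libraries lay wholly above or below the Control siRNA libraries (50.5%), beside 44.2% of all genes tested. The median log2 fold change, RNF6 siRNA minus Control siRNA, was 0.07 over the 101 genes and 0.01 over all genes tested.

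Calls were fewer when single libraries were left out. Without RNF6 siRNA replicate 3 there were 12 higher and 4 lower calls, and 20.2% of all genes were called. Without Control siRNA replicate 3 there were 14 higher and 6 lower calls, and 20.8% of all genes were called. Lower calls numbered 8 without RNF6 siRNA replicate 2 and 8 without Control siRNA replicate 2, with 24.5% and 28.3% of all genes called. In all 14 alternative settings tried, 15 of the 36 called genes stayed past the threshold, 12 of them higher and 3 lower. DESeq2 called 22 of the 36, and 24.6% of all genes it tested. Of the 36, those named below that DESeq2 did not call were SNHG9 (adjusted p = 0.065), SNHG17 (0.058), LINC00630 (0.10), LINC00470 (0.052), LINC00174 (0.064), LINC00886 (0.11), LINC00663 (0.12), LINC01003 (0.17), LINC01123 (0.050), LINC00243 (0.063), LINC00152 (0.063) and LINC00839 (0.096). SNHG9 was also not called with upper-quartile scaling (0.050). Reads without a feature, which include intronic reads, made up 7.26%, 8.6% and 9.23% of the listed reads in the RNF6 siRNA libraries, against 9.04%, 5.90% and 7.07% in the Control siRNA libraries. The groups overlap in this share, and with the share as a covariate 28 genes were called higher and 19 lower, of which 34 in all were among the 36. Over all genes that fit called 43.0%, beside 32.7% without the covariate. That fit also called NEAT1 lower (adjusted p = 0.0021) and SNHG12 higher (0.011), and did not call SNHG9 (0.097) or LINC00152 (0.051).

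**Figure D1:**
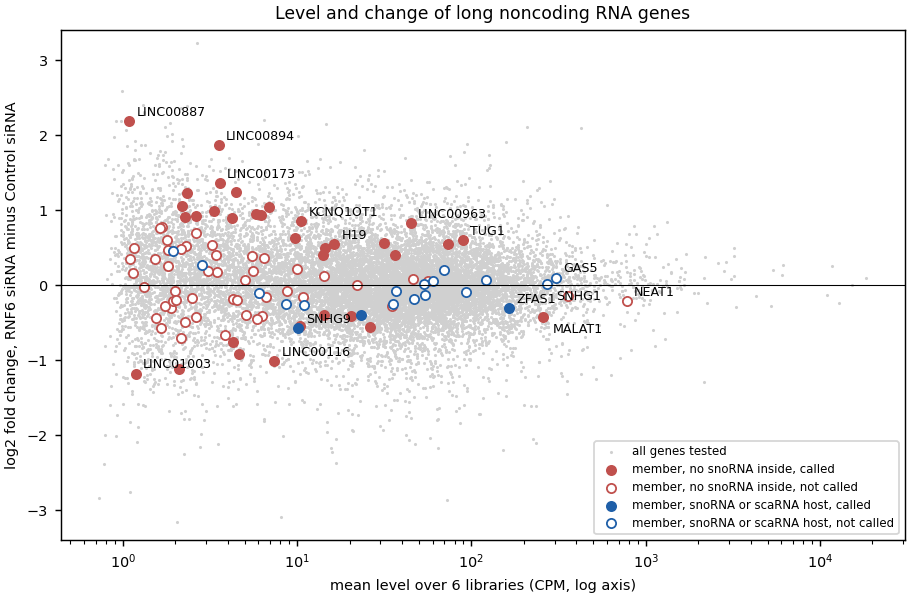
Mean level over 6 libraries (CPM, log axis) against log2 fold change (RNF6 siRNA minus Control siRNA) for all 14685 genes tested in grey, the 19 host genes in blue and the 82 other genes in red, filled where called. Among the host genes no filled point lies above 0 and 3 lie below it, while filled red points lie on both sides, from 2.18 to -1.18.

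The abundant nuclear RNAs were lower or not called. NEAT1, the scaffold of paraspeckles, was the most abundant of the 101 genes, with 705, 755 and 706 CPM in the RNF6 siRNA libraries, against 869, 807 and 833 CPM in the Control siRNA libraries. Every RNF6 siRNA library lay below every Control siRNA library, but the difference was not called (log2 fold change -0.21, 95% interval -0.39 to -0.03, adjusted p = 0.090). MALAT1 fell, with 225, 251 and 189 CPM in the RNF6 siRNA libraries, against 332, 284 and 272 CPM in the Control siRNA libraries. Its libraries did not overlap between the groups, with the lowest value in RNF6 siRNA replicate 3. The fall was 1.34-fold (log2 fold change -0.42 ± 0.12 SE, adjusted p = 0.016). Without RNF6 siRNA replicate 3 it was no longer called (adjusted p = 0.094), the highest of a range from 0.0017 over the settings tried. Per kilobase of annotated exon the mean level of NEAT1 was 34.2 CPM and that of MALAT1 29.3 CPM, below the 84.1 CPM of GAS5 and the 66.9 CPM of LINC00657.

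Protein partners of these nuclear bodies changed in both directions. Of 19 paraspeckle proteins tested, 5 rose (26.3%, beside 16.6% of all genes) and 2 fell (10.5%, beside 16.1%), with a median log2 fold change of 0.06. NONO, a core paraspeckle protein that binds NEAT1, averaged 460 ± 16.7 CPM in RNF6 siRNA and 328 ± 6.49 CPM in Control siRNA libraries (SD, n = 3 each), a 1.40-fold rise (adjusted p = 0.0011). TAF15 rose 1.65-fold and CPSF7 1.57-fold (adjusted p = 1.2e-04 and 2.8e-04). PSPC1, another core protein of the same family as NONO, fell 1.48-fold (adjusted p = 0.0017). SFPQ, the other member of that family, named after its values were seen, had 394 ± 28.3 CPM in RNF6 siRNA and 430 ± 32.4 CPM in Control siRNA libraries and was not called. The other lower call, HNRNPF, also named after its values were seen, was lost without RNF6 siRNA replicate 1, 2 or 3 and without Control siRNA replicate 2 or 3, leaving 1 lower call in each case.

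Of 18 nuclear speckle proteins tested, 5 rose (27.8%, beside 16.6% of all genes) and 2 fell (11.1%, beside 16.1%), with a median log2 fold change of 0.07. U2AF2, the large subunit of the splicing factor that reads the polypyrimidine tract, averaged 74.25 ± 4.29 CPM in RNF6 siRNA and 175 ± 13.5 CPM in Control siRNA libraries (SD, n = 3 each), a 2.35-fold fall (adjusted p = 3.8e-06). Its small subunit U2AF1 rose 1.54-fold (adjusted p = 3.0e-04). CLK1, a kinase of splicing factors, rose 1.45-fold (adjusted p = 0.0066), a call that ended without Control siRNA replicate 3 (adjusted p = 0.054, range over the settings 9.4e-05 to 0.054). Higher calls on this list numbered 3 without RNF6 siRNA replicate 3 and 1 without Control siRNA replicate 3, and lower calls 1 without RNF6 siRNA replicate 3.

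The 3′ end of MALAT1 is made by RNase P and RNase Z rather than by polyadenylation. Of 12 genes tested, made up of subunits of these enzymes and of METTL16, a protein that binds the folded 3′ end of MALAT1, 4 fell and 0 rose by edgeR, at an unadjusted p below 0.05 the counts were 6 and 0, by DESeq2 3 and 0, and by limma-voom 4 and 0. The list's median log2 fold change was -0.38, and its lower share of 33.3% stands beside 16.1% of all genes. ELAC2, the nuclear and mitochondrial RNase Z, averaged 69.2 ± 5.72 CPM in RNF6 siRNA and 162 ± 20.2 CPM in Control siRNA libraries (SD, n = 3 each), 2.34-fold lower (adjusted p = 1.1e-05). The RNase P subunits POP4 (1.37-fold) and RPP14 (1.26-fold) also fell, with adjusted p of 0.0077 and 0.029. Lower calls numbered 2 without RNF6 siRNA replicate 1, 2 without RNF6 siRNA replicate 3 and 6 without Control siRNA replicate 1, and the fit with the no-feature share as covariate gave 5 lower and 1 higher. RPP14 was no longer called without RNF6 siRNA replicate 1 (adjusted p = 0.11), RNF6 siRNA replicate 3 (0.076) or Control siRNA replicate 3 (0.12), the settings giving 0.0027 to 0.12. POP4 was not called when the replicate number was added to the edgeR fit (adjusted p = 0.058).

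Among imprinted genes, KCNQ1OT1 and H19 rose. KCNQ1OT1, an antisense RNA that silences neighbouring genes on the paternal chromosome 11, had 12.4, 13.3 and 15.1 CPM in the RNF6 siRNA libraries, against 8.53, 6.94 and 7.15 CPM in the Control siRNA libraries. All RNF6 siRNA libraries lay above all Control siRNA libraries. The rise was 1.81-fold (log2 fold change 0.86 ± 0.15 SE, adjusted p = 0.0011) and held in every setting tried (adjusted p at most 0.013). KCNQ1OT1 is annotated as an unspliced RNA of 91667 bases, the longest exonic length of the 101 genes, so its mean level per kilobase was 0.115 CPM.

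H19, a maternally expressed RNA and microRNA precursor in the neighbouring imprinted domain, had 19.9, 18.9 and 19.2 CPM in the RNF6 siRNA libraries, against 13.2, 14.2 and 12.4 CPM in the Control siRNA libraries. The groups did not overlap, and the spread within the RNF6 siRNA libraries was 0.496 CPM (SD, n = 3). The rise was 1.46-fold (log2 fold change 0.54 ± 0.13 SE, adjusted p = 0.0055) and held in every setting tried (adjusted p at most 0.046). MEG3, a maternally expressed RNA on chromosome 14, had only 11 to 26 reads in an RNF6 siRNA library and 15 to 25 in a Control siRNA library, and was not called (log2 fold change -0.20, 95% interval -0.77 to 0.37).

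Of 8 other genes tested from the imprinted region on chromosome 11, 1 rose (12.5%, beside 16.6% of all genes) and 2 fell (25%, beside 16.1%). SLC22A18, a membrane transporter, averaged 33.9 ± 1.64 CPM in RNF6 siRNA and 20.02 ± 3.65 CPM in Control siRNA libraries (SD, n = 3 each), a 1.69-fold rise (adjusted p = 0.0013). TSSC4 fell 1.76-fold (adjusted p = 0.0033). PHLDA2, a growth-restraining gene of the placenta, fell 1.55-fold (adjusted p = 0.0083), not called without RNF6 siRNA replicate 3 (adjusted p = 0.054, range over the settings 2.5e-06 to 0.054) and left 1 lower call. Without Control siRNA replicate 2 there were 2 higher calls. KCNQ1, the potassium channel gene that KCNQ1OT1 overlaps on the other strand, averaged 7.48 ± 1.31 CPM in RNF6 siRNA and 9.10 ± 2.63 CPM in Control siRNA libraries and was not called (log2 fold change -0.28 ± 0.21 SE). KCNQ1 was called lower without Control siRNA replicate 1 (adjusted p = 0.037, range over the settings 0.037 to 0.98). The strand setting of the counting is not given in the sources used here, so reads of overlapping genes on opposite strands cannot be told apart.

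TUG1 rose, while PVT1 and CCAT1 were not called. TUG1, first described in the mouse retina and also annotated with a small protein, had 101, 114 and 109 CPM in the RNF6 siRNA libraries, against 80.5, 66.3 and 66.8 CPM in the Control siRNA libraries. The groups did not overlap, and the rise of 1.52-fold (log2 fold change 0.60 ± 0.11 SE, adjusted p = 0.0013) held in every setting tried (adjusted p at most 0.021). PVT1, a neighbour of MYC, had 52.8, 44.1 and 46.3 CPM in the RNF6 siRNA libraries, against 41.6, 50.1 and 43.4 CPM in the Control siRNA libraries. These values overlapped, with a log2 fold change of 0.09 (95% interval -0.15 to 0.32). CCAT1, a transcript known from colon cancer, had 9 to 23 reads in an RNF6 siRNA library and 13 to 21 in a Control siRNA library, and was not called, with an interval of -1.07 to 0.45 on the log2 scale.

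**Figure D2:**
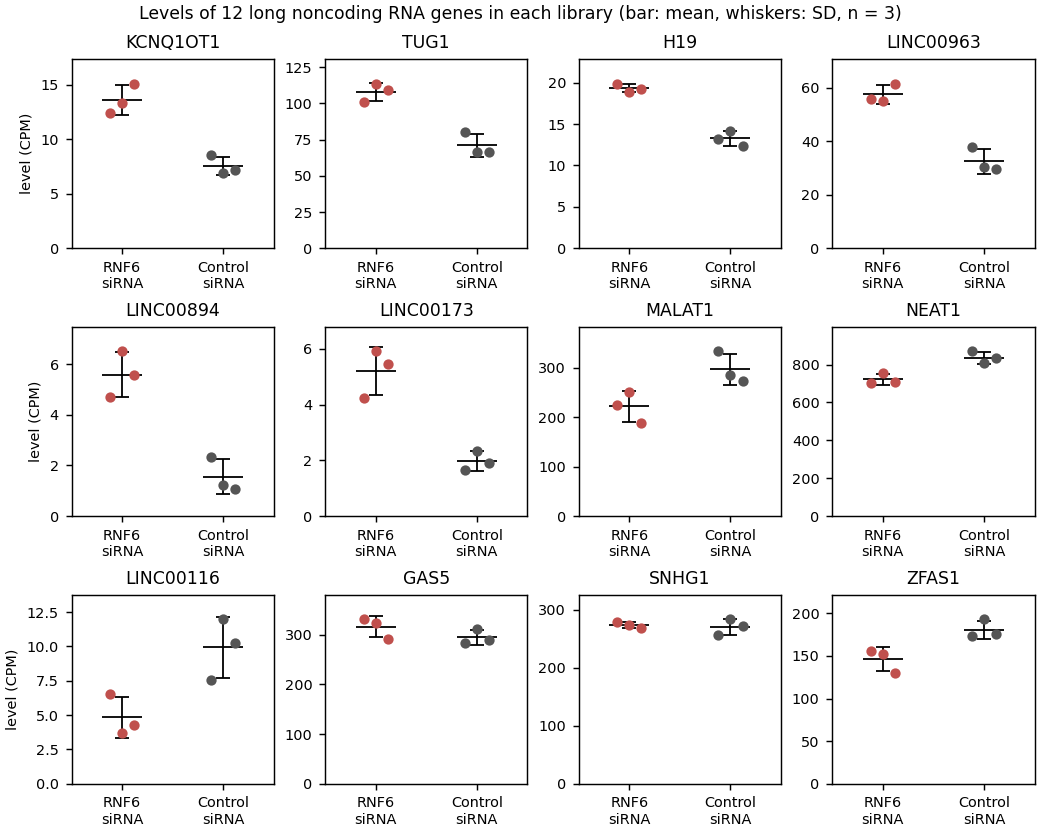
Level (CPM, linear axes from 0) of 12 genes in each of the 3 RNF6 siRNA and 3 Control siRNA libraries, with the mean as a bar and the SD as whiskers. The groups do not overlap for KCNQ1OT1, TUG1, H19, LINC00963, LINC00894, LINC00173, MALAT1, NEAT1, LINC00116 and ZFAS1, and they overlap for GAS5 and SNHG1.

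Host genes showed small differences between the groups. By RefSeq, 19 of the 101 genes contain a snoRNA or the related Cajal body RNA (scaRNA): all 13 SNHG genes, GAS5, ZFAS1, DANCR, LINC00338 (now SNHG20), LINC00888 (now SNHG33) and LINC00843 (matched to TIMM23B-AGAP6). LINC00843 counts as a host only through that RefSeq gene, and its GENCODE entry holds no snoRNA. Of the 19 hosts, 0 rose (beside 16.6% of all genes) and 3 fell (15.8%, beside 16.1%) by edgeR, the falls being SNHG9, SNHG17 and ZFAS1. At an unadjusted p below 0.05 the counts were 0 and 3, by DESeq2 0 and 1, and by limma-voom 0 and 3. The hosts' log2 fold changes ran from -0.57 to 0.45, the highest being LINC00843 and the next SNHG10 at 0.27. Their median was -0.09, and the median size of the change was 0.18, beside 0.28 over all genes tested. Among the other 82 genes, 23 rose (28.0%) and 10 fell (12.2%). Their median size of change was 0.46, but their median level was 4.30 CPM beside 46.7 CPM for the hosts. At a mean of at least 10 CPM, 0 of 15 hosts rose and 3 fell, and 9 of 23 other genes rose and 5 fell, beside 17.7% higher and 19.2% lower of all 10385 genes at that level. The median size of the change there was 0.14 for hosts, 0.41 for the other genes and 0.26 for all genes. The difference between hosts and other genes was not tested.

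Lower calls among the hosts were fewer when single libraries were left out. They numbered 0 without RNF6 siRNA replicate 2, 0 without Control siRNA replicate 2, 0 without Control siRNA replicate 3 and 1 without RNF6 siRNA replicate 3. In the same order, 24.5%, 28.3%, 20.8% and 20.2% of all genes were called in these settings, beside 32.7% with all libraries. At a mean of at least 10 CPM, higher calls among the other 23 genes numbered 5 without RNF6 siRNA replicate 3 and 5 without Control siRNA replicate 3. Lower calls there numbered 3 without RNF6 siRNA replicate 1, 3 without RNF6 siRNA replicate 2, 1 without RNF6 siRNA replicate 3 and 2 without Control siRNA replicate 3. Over all 82 other genes, higher calls numbered 12 without RNF6 siRNA replicate 3 and 14 without Control siRNA replicate 3, with lower calls of 3 and 6 in the same settings. The median log2 fold change of the hosts was 0.03 without Control siRNA replicate 2.

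ZFAS1, host of 3 C/D box snoRNAs, had 156, 153 and 131 CPM in the RNF6 siRNA libraries, against 173, 193 and 176 CPM in the Control siRNA libraries, and fell 1.24-fold (log2 fold change -0.31 ± 0.10 SE, adjusted p = 0.035). The groups did not overlap, but ZFAS1 was no longer called without RNF6 siRNA replicate 2 (adjusted p = 0.060), RNF6 siRNA replicate 3 (0.17), Control siRNA replicate 2 (0.089) or Control siRNA replicate 3 (0.092), with a range of 0.0081 to 0.17 over the settings. Other genes' exons, counting any of its own snoRNAs, cover 47.0% of its exonic length. SNHG17 had 19.9, 16.4 and 23.1 CPM in the RNF6 siRNA libraries, against 27.0, 28.1 and 24.2 CPM in the Control siRNA libraries, without overlap, and fell 1.32-fold (adjusted p = 0.042). It was no longer called without RNF6 siRNA replicate 1 (adjusted p = 0.075) or 2 (0.14) and without Control siRNA replicate 2 (0.088) or 3 (0.062), with a range of 0.011 to 0.14 over the settings. SNHG9 had 10.2, 6.49 and 7.71 CPM in the RNF6 siRNA libraries, against 9.08, 13.4 and 14.1 CPM in the Control siRNA libraries, and RNF6 siRNA replicate 1 lay above Control siRNA replicate 1. It fell 1.49-fold (adjusted p = 0.043), and it was no longer called without RNF6 siRNA replicate 2 (adjusted p = 0.15) or 3 (0.15) and without Control siRNA replicate 2 (0.070) or 3 (0.17), with a range of 0.0016 to 0.17 over the settings. Of the 3 lower calls among hosts, none therefore held in every setting.

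GAS5, host of 11 snoRNAs in RefSeq and a decoy of the glucocorticoid receptor, had 331, 325 and 292 CPM in the RNF6 siRNA libraries, against 283, 311 and 290 CPM in the Control siRNA libraries. These values overlapped, with a log2 fold change of 0.10 (95% interval -0.08 to 0.28). SNHG1, a snoRNA host without a known protein product, had 278, 274 and 270 CPM in the RNF6 siRNA libraries, against 256, 284 and 272 CPM in the Control siRNA libraries. Its interval of -0.16 to 0.19 on the log2 scale was the narrowest among the hosts. DANCR had 70.0, 59.2 and 55.9 CPM in the RNF6 siRNA libraries, against 55.4, 63.9 and 58.9 CPM in the Control siRNA libraries, which overlapped, with an interval of -0.17 to 0.28.

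The remaining SNHG genes were not called. SNHG16, SNHG6 and SNHG12 averaged 124 ± 7.85, 89.8 ± 10.8 and 74.5 ± 6.53 CPM in RNF6 siRNA libraries, against 117 ± 7.996, 95.6 ± 16.8 and 64.6 ± 3.41 CPM in Control siRNA libraries (SD, n = 3 each). SNHG12 was the highest of them in log2 fold change after SNHG10, at 0.21 with an interval of -0.0042 to 0.41, and its RNF6 siRNA libraries all lay above the Control siRNA libraries. SNHG5, SNHG7, SNHG3 and SNHG8 averaged 51.7 ± 4.47, 53.8 ± 4.70, 43.7 ± 3.89 and 36.0 ± 4.13 CPM in RNF6 siRNA libraries, against 56.7 ± 5.58, 53.1 ± 10.8, 49.6 ± 3.17 and 38.2 ± 5.25 CPM in Control siRNA libraries. SNHG15 and SNHG11 had log2 fold changes of -0.26 and -0.25 with all RNF6 siRNA libraries below the Control siRNA libraries, at 32.3 ± 3.72 and 7.76 ± 1.46 CPM, against 38.6 ± 3.02 and 9.41 ± 0.191 CPM in Control siRNA. SNHG10, the least abundant, averaged 3.14 ± 1.09 CPM in RNF6 siRNA and 2.55 ± 0.622 CPM in Control siRNA libraries.

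The snoRNAs themselves were hardly recorded. RefSeq places 54 snoRNA or scaRNA genes inside the 19 hosts, 31 of them were listed in the counts, and these 31 held 495 reads over the 6 libraries together. GAS5 alone held 16617 reads while its 7 listed snoRNAs held 59. The level of the host transcripts described above is therefore that of the spliced or unspliced host RNA in these libraries, and no change of a snoRNA is given.

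**Figure D3:**
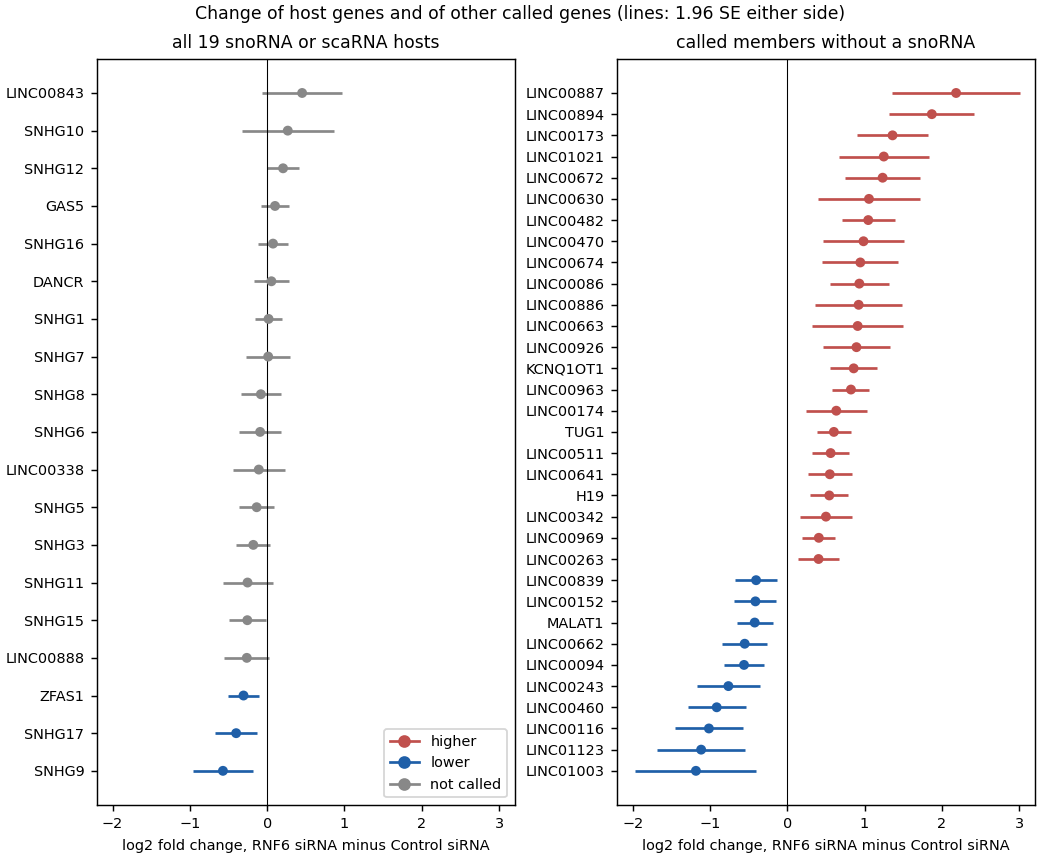
Log2 fold change (RNF6 siRNA minus Control siRNA) of the 19 host genes on the left and of the 33 other called genes on the right, with lines for 95% intervals. Most host genes lie close to 0, between -0.57 (SNHG9) and 0.45 (LINC00843), and the right panel runs from LINC01003 at -1.18 to LINC00887 at 2.18.

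Among genes that process or bind snoRNAs and host transcripts, most calls for snoRNP proteins were falls, although the fit with the no-feature share as covariate also called 4 rises and upper-quartile scaling 1. Of 16 snoRNP core and assembly genes tested, 6 fell (37.5%, beside 16.1% of all genes) and 0 rose by edgeR. At an unadjusted p below 0.05 the counts were 8 lower and 2 higher, and by DESeq2 and limma-voom 6 lower and 0 higher each. The median log2 fold change was -0.18. GAR1, a core protein of H/ACA snoRNPs, averaged 26.2 ± 1.11 CPM in RNF6 siRNA and 43.3 ± 2.40 CPM in Control siRNA libraries (SD, n = 3 each), 1.65-fold lower (adjusted p = 3.3e-04). NHP2L1, which binds the box C/D motif and the U4 RNA, fell 1.52-fold, and RUVBL1, an ATPase of snoRNP assembly, fell 1.41-fold (adjusted p = 0.0031 and 0.0037). FBL, the methylase of C/D snoRNPs, and DKC1, the pseudouridine synthase, were named after their values were seen. Both were called higher with that covariate (adjusted p = 0.022 and 0.0030). Otherwise FBL was not called at 266 ± 27.3 CPM in RNF6 siRNA and 260 ± 41.4 CPM in Control siRNA libraries, and DKC1 was not called at 110 ± 4.66 CPM in RNF6 siRNA and 92.3 ± 5.12 CPM in Control siRNA libraries.

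Of 18 nonsense-mediated decay factors, 3 rose (16.7%, beside 16.6% of all genes) and 0 fell by edgeR, 0 at an unadjusted p below 0.05, and 0 by DESeq2 or limma-voom. CASC3, RNPS1 and UPF2 rose 1.30-fold, 1.36-fold and 1.25-fold. Higher calls numbered 2 by DESeq2, 1 without RNF6 siRNA replicate 3 and 0 without Control siRNA replicate 3. CASC3 (adjusted p = 0.012) was not called without Control siRNA replicate 3 (0.060). RNPS1 (adjusted p = 0.013) was not called without RNF6 siRNA replicate 1 (0.052) or 3 (0.068) or Control siRNA replicate 3 (0.074). UPF2 (adjusted p = 0.044) was not called by DESeq2 (0.069). It was also not called without RNF6 siRNA replicate 2 (0.16) or 3 (0.12) or Control siRNA replicate 2 (0.12) or 3 (0.18). Over the settings these p ranged from 8.0e-04 to 0.073, from 1.1e-04 to 0.075 and from 0.0098 to 0.18. UPF1, the helicase at the centre of the pathway, named after its values were seen, averaged 122 ± 11.7 CPM in RNF6 siRNA and 135 ± 4.50 CPM in Control siRNA libraries and was not called (log2 fold change -0.15, 95% interval -0.35 to 0.05). Of 14 messenger RNAs with a terminal oligopyrimidine start other than those of ribosomal proteins, 5 rose (35.7%) and 0 fell by edgeR, 0 at an unadjusted p below 0.05, and 0 by DESeq2 or limma-voom. EIF3F, NAP1L1 and EEF2 rose 1.90-fold, 1.51-fold and 1.41-fold (adjusted p = 5.0e-05, 8.9e-04 and 0.0047), while the list's median log2 fold change was 0.07. With the no-feature share as covariate there were 7 higher and 1 lower on this list, 5 higher and 0 lower among the decay factors, 3 higher and 2 lower among the imprinted genes, and 6 higher and 4 lower among the speckle proteins.

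LINC genes held most of the calls. Of 77, 20 rose (beside 16.6% of all genes) and 9 fell (11.7%, beside 16.1%), with a median log2 fold change of 0.18. Higher calls numbered 9 without RNF6 siRNA replicate 3 and 11 without Control siRNA replicate 3, with lower calls of 3 and 5 in the same settings. Their median level was 4.24 CPM, and 10 of the 77 (13.0%) had a fold of at least 2 in either direction, as did 10.5% of all genes tested under 10 CPM. Of all genes tested under 10 CPM, 14.0% were called higher and 8.58% lower.

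The largest rises were of low-abundance genes. LINC00887 had 2.30, 1.33 and 1.70 CPM in the RNF6 siRNA libraries (25, 9 and 19 reads), against 0.550, 0.336 and 0.320 CPM in the Control siRNA libraries (4, 3 and 3 reads). It passed the read minimum mostly through the RNF6 siRNA libraries, and its 4.55-fold rise (log2 fold change 2.18 ± 0.42 SE, adjusted p = 0.0019) rests on few reads. LINC00894, now EOLA2-DT, had 4.69, 6.49 and 5.56 CPM in the RNF6 siRNA libraries, against 2.34, 1.23 and 1.07 CPM in the Control siRNA libraries, and rose 3.66-fold (log2 fold change 1.87 ± 0.28 SE, adjusted p = 3.2e-04). LINC00173 had 4.23, 5.90 and 5.47 CPM in the RNF6 siRNA libraries, against 1.65, 2.35 and 1.92 CPM in the Control siRNA libraries, a 2.57-fold rise (adjusted p = 9.0e-04). In all 3 genes every RNF6 siRNA library lay above every Control siRNA library, and the calls held in every setting tried.

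LINC01021, now PURPL and known as a p53-responsive RNA, had 3.95, 7.23 and 7.62 CPM in the RNF6 siRNA libraries, against 3.71, 2.24 and 2.03 CPM in the Control siRNA libraries, with RNF6 siRNA replicate 1 close to the highest Control siRNA library. Its 2.38-fold rise (adjusted p = 0.0066) was no longer called without RNF6 siRNA replicate 3 (adjusted p = 0.051, range over the settings 6.7e-06 to 0.051). LINC00672 (now LASP1NB), LINC00482 and LINC00086 rose 2.35-fold, 2.07-fold and 1.91-fold, without overlap between the groups, and these calls held in every setting. LINC00482 was the most abundant of the 3, with 9.65, 8.86 and 9.15 CPM in the RNF6 siRNA libraries, against 4.68, 5.15 and 3.63 CPM in the Control siRNA libraries (adjusted p = 7.2e-04).

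The other 5 of the 12 largest LINC rises were lost in some settings. LINC00630 rose 2.08-fold (adjusted p = 0.029), a call that ended without RNF6 siRNA replicate 2 (0.072), RNF6 siRNA replicate 3 (0.15) or Control siRNA replicate 3 (0.15), the settings giving 0.0069 to 0.15. LINC00470 rose 1.98-fold (adjusted p = 0.013), a call that ended without RNF6 siRNA replicate 3 (0.077) or Control siRNA replicate 3 (0.062), the settings giving 8.2e-04 to 0.077. LINC00674 rose 1.92-fold (adjusted p = 0.012), a call that ended without RNF6 siRNA replicate 3 (0.088), the settings giving 1.7e-04 to 0.088. LINC00886 rose 1.90-fold (adjusted p = 0.026), a call that ended without RNF6 siRNA replicate 2 (0.063) or 3 (0.088) and without Control siRNA replicate 2 (0.12) or 3 (0.061), the settings giving 0.0049 to 0.12. LINC00663 rose 1.88-fold (adjusted p = 0.033), a call that ended without RNF6 siRNA replicate 2 (0.11) or 3 (0.097) and without Control siRNA replicate 1 (0.082) or 3 (0.078), the settings giving 0.020 to 0.12.

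Among the abundant LINC genes, LINC00963 rose most clearly. It had 55.8, 55.1 and 61.4 CPM in the RNF6 siRNA libraries, against 38.0, 30.2 and 29.6 CPM in the Control siRNA libraries. The groups were far apart, and the 1.77-fold rise (log2 fold change 0.82 ± 0.12 SE, adjusted p = 2.9e-04) held in every setting tried (adjusted p at most 0.0070). LINC00641 had 74.8, 93.0 and 93.3 CPM in the RNF6 siRNA libraries, against 71.3, 47.2 and 59.95 CPM in the Control siRNA libraries, and rose 1.46-fold (adjusted p = 0.012). That call ended without RNF6 siRNA replicate 2 (0.055) or 3 (0.070) or Control siRNA replicate 3 (0.051), the settings giving 9.1e-05 to 0.070. LINC00969, now MIR570HG, rose 1.33-fold at 41.6 ± 2.58 CPM in RNF6 siRNA and 31.4 ± 1.36 CPM in Control siRNA libraries (SD, n = 3 each; adjusted p = 0.012), lost without RNF6 siRNA replicate 3 (0.074) or Control siRNA replicate 3 (0.071), the settings giving 0.0048 to 0.075.

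LINC00657, known as NORAD, which binds Pumilio proteins in the cytoplasm, was the most abundant LINC gene. It had 318, 357 and 344 CPM in the RNF6 siRNA libraries, against 417, 334 and 372 CPM in the Control siRNA libraries, which overlapped (log2 fold change -0.14, 95% interval -0.34 to 0.06). With the no-feature share as covariate it was called lower (adjusted p = 0.0044). LINC00998, now SMIM30, had 61.1, 62.0 and 49.0 CPM in the RNF6 siRNA libraries, against 57.2, 52.7 and 55.5 CPM in the Control siRNA libraries, and was not called (95% interval -0.17 to 0.28). LINC00511 and LINC00926, chosen for naming after their values were seen, rose 1.48-fold and 1.86-fold (adjusted p = 0.0041 and 0.0081) in every setting tried.

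The 9 LINC genes that fell were led in size by genes with few reads. LINC01003 fell 2.27-fold on 5, 8 and 7 reads in the RNF6 siRNA libraries, against 12, 17 and 12 reads in the Control siRNA libraries (adjusted p = 0.037). Its call ended without RNF6 siRNA replicate 1 (0.14) or 3 (0.13) and without Control siRNA replicate 2 (0.11) or 3 (0.055), the settings giving 0.026 to 0.17. LINC01123 fell 2.17-fold (adjusted p = 0.011), lost without RNF6 siRNA replicate 3 (0.059), the settings giving 0.0026 to 0.059. LINC00116, LINC00460 and LINC00094 are the 3 whose fall held in every setting.

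LINC00116, now MTLN, encodes mitoregulin, a small protein of the inner mitochondrial membrane. It had 6.53, 3.69 and 4.30 CPM in the RNF6 siRNA libraries, against 7.57, 11.98 and 10.2 CPM in the Control siRNA libraries. The groups did not overlap, although RNF6 siRNA replicate 1 and Control siRNA replicate 1 were close, and the fall was 2.02-fold (log2 fold change -1.01 ± 0.23 SE, adjusted p = 0.0045). LINC00460 had 3.31, 3.395 and 2.96 CPM in the RNF6 siRNA libraries, against 5.23, 6.603 and 6.19 CPM in the Control siRNA libraries, 1.88-fold lower (adjusted p = 0.0031). LINC00094, now BRD3OS, had 24.5, 18.9 and 20.2 CPM in the RNF6 siRNA libraries, against 28.8, 33.7 and 31.6 CPM in the Control siRNA libraries, 1.47-fold lower (adjusted p = 0.0059).

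The 4 remaining falls were smaller and were lost in several settings. LINC00243 fell 1.70-fold (adjusted p = 0.013), lost without RNF6 siRNA replicate 3 (0.055) or Control siRNA replicate 2 (0.072), the settings giving 0.0043 to 0.072. LINC00662 fell 1.46-fold (adjusted p = 0.013), lost without RNF6 siRNA replicate 3 (0.066) or Control siRNA replicate 3 (0.051), the settings giving 0.0022 to 0.066. LINC00152, now CYTOR, fell 1.33-fold (adjusted p = 0.037), lost without RNF6 siRNA replicate 1 (0.059), 2 (0.053) or 3 (0.16) and without Control siRNA replicate 2 (0.14) or 3 (0.092), the settings giving 0.0048 to 0.16. LINC00839 fell 1.32-fold (adjusted p = 0.039), lost without RNF6 siRNA replicate 1 (0.057), 2 (0.10) or 3 (0.11) and without Control siRNA replicate 1 (0.064) or 3 (0.15), the settings giving 0.0087 to 0.15.

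Not all of these genes are noncoding in the current annotation. RefSeq was matched for 99 of the 101 genes, 27 of the LINC genes under another symbol, and 10 with the gene type protein-coding: TUG1, LINC00094, LINC00116, LINC00176, LINC00341, LINC00493, LINC00672, LINC00984, LINC00998 and LINC01125. LINC00086 and LINC00087 were not matched, so their current gene type is not given here. Of the 10, 2 rose (TUG1 and LINC00672) and 2 fell (LINC00094 and LINC00116), beside 16.6% higher and 16.1% lower of all genes, and these calls held in every setting. Exonic lengths in GENCODE release 29 were found for 97 genes and ran from 540 to 91667 bases with a median of 3669. In 21 genes over 10% of that length lies under exons of other GENCODE entries, counting snoRNAs and other small RNAs inside the gene. For SNHG1, SNHG8 and SNHG9 small RNA genes alone make up this overlap. Among the entries covering LINC00941 is another of the same name. Of the 21, 2 rose (9.52%) and 4 fell (19%), SNHG9 among them, beside the same shares of all genes. Those 4 lower calls numbered 2 without RNF6 siRNA replicate 2, 1 without RNF6 siRNA replicate 3, 2 without Control siRNA replicate 2 and 2 without Control siRNA replicate 3, and the 2 higher calls 1 without RNF6 siRNA replicate 3 and 1 without Control siRNA replicate 3.

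Some neighbouring protein-coding genes were called in the same direction as the gene of interest and some in the opposite one. An overlapping gene, or one whose start lies within 5000 bases, was found in GENCODE for 32 genes in the 34 pairs used, and the neighbour was tested in 28. In 7 pairs, made by 7 called genes of the 101, 1 neighbour was called in the same direction, 4 in the opposite direction and 2 were not called. Of all genes tested, 32.7% were called. Without RNF6 siRNA replicate 3, and likewise without Control siRNA replicate 3, there were 4 such pairs, with 0 neighbours called in the same direction and 2 in the opposite one. Without RNF6 siRNA replicate 1 there were 9 pairs, 3 same and 3 opposite, without Control siRNA replicate 1 there were 8, with 2 same and 5 opposite, and without RNF6 siRNA replicate 2 or Control siRNA replicate 2 there were 5, with 0 same and 3 opposite. DESeq2 gave 5 pairs, 1 same and 2 opposite. These pairs are a description, and no difference within a pair was tested. The clearest case was LINC00894, whose start lies 183 bases from that of CXorf40B on the opposite strand. CXorf40B averaged 16.3 ± 0.734 CPM in RNF6 siRNA and 31.0 ± 3.79 CPM in Control siRNA libraries (SD, n = 3 each), a 1.91-fold fall (adjusted p = 1.7e-04) beside the 3.66-fold rise of LINC00894.

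The neighbours were named after their values were seen. BRD3, which encodes a bromodomain protein and overlaps LINC00094 on the opposite strand, rose 1.66-fold at 43.0 ± 4.98 CPM in RNF6 siRNA and 26.01 ± 3.10 CPM in Control siRNA libraries (adjusted p = 0.0010), while LINC00094 fell. ZNFX1, the antisense partner for which ZFAS1 is named, with starts 248 bases apart, fell 2.45-fold at 45.1 ± 4.25 CPM in RNF6 siRNA and 111 ± 3.29 CPM in Control siRNA libraries (adjusted p = 3.8e-06), beside the 1.24-fold fall of ZFAS1. TPST1 fell 2.06-fold (adjusted p = 5.6e-05) where it overlaps LINC00174 on the opposite strand. LINC00174, chosen for naming after its values were seen, rose 1.55-fold, a call that ended without RNF6 siRNA replicate 3 (0.19) or Control siRNA replicate 3 (0.072), the settings giving 0.0045 to 0.19.

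RPS2, a ribosomal protein gene whose start lies 99 bases from that of SNHG9, rose 1.25-fold at 856 ± 89.6 CPM in RNF6 siRNA and 683 ± 49.3 CPM in Control siRNA libraries (adjusted p = 0.032) while SNHG9 fell. That call ended without RNF6 siRNA replicate 1 (0.078) or 2 (0.13) and without Control siRNA replicate 1 (0.056) or 3 (0.13), the settings giving 2.8e-05 to 0.13. MORC2, 947 bases from the start of TUG1, was not called at 53.5 ± 0.606 CPM in RNF6 siRNA and 64.1 ± 5.75 CPM in Control siRNA libraries (log2 fold change -0.26 ± 0.11 SE). It was called lower without Control siRNA replicate 1 (adjusted p = 0.016, range over the settings 0.016 to 0.23). SLC3A2, the amino acid transporter subunit whose start lies 188 bases from that of SNHG1, fell 1.62-fold at 146 ± 13.6 CPM in RNF6 siRNA and 237 ± 31.2 CPM in Control siRNA libraries (adjusted p = 6.1e-04), beside SNHG1 at a log2 fold change of 0.02.

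**Figure D4:**
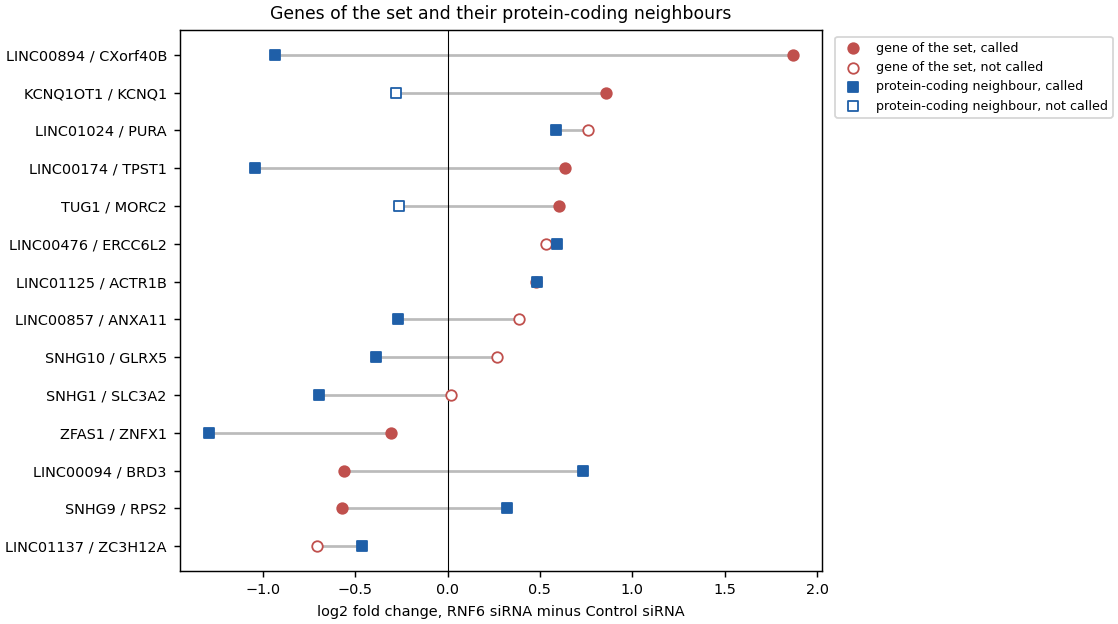
Log2 fold change (RNF6 siRNA minus Control siRNA) of genes among the 101 (red circles) and of a protein-coding gene that overlaps or starts nearby (blue squares), for the 14 pairs in which either was called, filled where called. LINC00894 at 1.87 and CXorf40B at -0.93 lie farthest apart, and ZFAS1 with ZNFX1 is the pair called lower in both.

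The share of all assigned reads held by the 101 genes differed little, at 0.349%, 0.360% and 0.341% in the RNF6 siRNA libraries, against 0.373%, 0.357% and 0.357% in the Control siRNA libraries, and these values overlapped. NEAT1 and MALAT1 together held 0.0915%, 0.100% and 0.0901% in the RNF6 siRNA libraries, against 0.122%, 0.107% and 0.111% in the Control siRNA libraries, with no overlap. The 77 LINC genes held 0.103% ± 0.00464 in RNF6 siRNA and 0.0985% ± 0.00768 in Control siRNA libraries, and the 19 hosts 0.135% ± 0.00697 and 0.139% ± 0.00743 (SD, n = 3 each). In bulk RNA a change in the number of cells that express a gene and a change in RNA per cell cannot be told apart.

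The nuclear exosome degrades many unstable noncoding transcripts. Of 23 genes of the exosome and its adaptors, 4 rose (17.4%, near the 16.6% of all genes) and 6 fell (26.1%, beside 16.1%), with a median log2 fold change of -0.06. NCBP1, the large cap-binding subunit, averaged 61.7 ± 0.794 CPM in RNF6 siRNA and 95.8 ± 4.95 CPM in Control siRNA libraries (SD, n = 3 each), 1.55-fold lower (adjusted p = 3.9e-04). EXOSC5, a subunit of the exosome ring, fell 1.67-fold (adjusted p = 0.0018), and SRRT, which links the cap-binding complex to the exosome, rose 1.43-fold (adjusted p = 0.0039). Higher calls numbered 1 without RNF6 siRNA replicate 2, 1 without RNF6 siRNA replicate 3, 1 without Control siRNA replicate 2 and 1 without Control siRNA replicate 3. Lower calls numbered 3 without RNF6 siRNA replicate 2, 3 without RNF6 siRNA replicate 3 and 3 without Control siRNA replicate 3. Of 13 messenger RNAs of the mitochondrial genome, 0 rose and 0 fell by edgeR, 1 each way at an unadjusted p below 0.05, 0 higher and 1 lower by DESeq2 and 0 by limma-voom. Without Control siRNA replicate 1 there were 3 lower calls, with the no-feature share as covariate 4 higher and 1 lower, and without the filter on low counts 1 lower.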

How the data were processed

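Raw counts of reads for every gene symbol were deposited by the authors, 1 file a library. TopHat2 2.0.11, HTSeq and hg19 (GRCh37) are named in the submitters' processing notes. Strand setting and annotation release: not given in the sources used here. Rows that name no gene held 27.3% to 29.4% of listed reads and were left out. Groups and replicate numbers come from the sample titles. Separate cultures are not stated, so p-values measure library-to-library spread only, possibly technical.

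Counts were tested in R 4.3.3 with edgeR 4.0.16 (filterByExpr, TMM factors 0.985 to 1.02, robust quasi-likelihood fit, two-sided, group as the only term), with Benjamini-Hochberg adjustment over 14685 genes and a threshold of 0.05. CPM values are scaled to reads in genes and by TMM. Fold changes use a prior count of 0.125, and SE was taken as log2 fold change over the root of the F statistic. Intervals of 95% are normal intervals from that SE. The fit was checked on simulated counts. DESeq2 1.42.0, limma-voom (limma 3.58.1), other scalings and filters, a replicate block and leaving out each library were alternatives.

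The genes and lists were chosen with earlier results of these data known. Genes are named by rule: the 11 named singly, every SNHG gene, up to 12 highest and 12 lowest called LINC genes (minimum mean 1 CPM), the 5 most abundant LINC genes, up to 3 called members of each list by adjusted p, and RNF6. RefSeq (GRCh38.p14) gave current symbols, snoRNAs and start windows. GENCODE release 29 (GRCh38) gave exonic lengths, overlaps and neighbours. In the comparison with neighbours, 1 pair is not reported here.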

Additional observations from a re-analysis of the deposited data

How the results depend on the processing

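No called gene among the 101 changed direction in any of the 14 alternatives. Beside 23 higher and 13 lower calls, leaving out 1 library gave 12 to 23 higher and 4 to 13 lower calls, with 20.2% to 39.1% of all genes called. DESeq2 gave 6 lower calls, with 24.6% of the genes it tested called. The fit with the replicate block gave 15 higher and 5 lower calls, 0 lower SNHG genes, 0 lower hosts, and 11 higher and 10 lower calls over the related lists together (23 and 22 without it). That fit called 18.7% of all genes, beside 32.7% without the block. Deviations of same-numbered libraries from their group means correlated at -0.463, -0.252 and 0.052 over genes. Those of differently numbered libraries correlated at -0.244 to 0.461, highest for RNF6 siRNA replicate 1 with Control siRNA replicate 2. With 3 libraries a group, these correlations cannot decide whether the numbers pair the libraries. Counts from the block fit are given here only.

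Lower SNHG calls, 2 in the values reported, numbered 0 to 2 when 1 library was left out, 1 with upper-quartile scaling, 1 with the no-feature share as covariate and 0 with DESeq2. Lower hosts, 3 in the values reported, numbered 0 to 3 and 1 with DESeq2. Over the related lists, calls ran from 11 to 25 higher and from 13 to 26 lower when 1 library was left out. The covariate, chosen after the data were seen, gave 1 higher SNHG gene, 1 higher host, 36 higher calls on the lists, and a median log2 fold change of 0.0545 for SNHG genes and for hosts, beside -0.0917. With it 43.0% of all genes were called. The hosts' median ran from -0.1708 to 0.0265 when 1 library was left out. The cause of these shifts was not tested. Genes under 10 CPM have a median SE of 0.26 on the log2 scale, against 0.12 above it, which limits what can be called.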
